A study of Sus scrofa with 80 samples.

Results

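ALDH1A1 and RBP4 are genes of the retinoid (vitamin A) pathway, and their expression was followed in endocrine tissues of young pigs. Their probesets were chosen by gene symbol: every probeset of the Affymetrix porcine array whose annotation gives ALDH1A1 or RBP4 as its only gene, which were 4 of 23999 probesets, 2 per gene. The symbols themselves were picked with earlier results of these arrays known, because the study ranked ALDH1A1 among testis genes that varied between breeds, and no source used here says which values led to RBP4. The levels of both genes by tissue, gonad and breed are therefore given as a description, with no test.

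Retinol released from stores travels in blood bound to the carrier protein encoded by RBP4, which is made mainly in liver and also in adipose tissue. Inside cells retinol is oxidised to retinal, and ALDH1A1, a cytosolic aldehyde dehydrogenase, oxidises retinal further to retinoic acid. Retinoic acid binds nuclear receptors of the RAR family, which act with RXR partners on target genes, and in the gonads this signal is known, mainly from mice, for starting meiosis of germ cells.

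The 80 arrays came from 16 pigs, each sampled for hypothalamus (taken with the mamillary body and grey tubercle), adenohypophysis (cut away from the neurohypophysis), thyroid gland, gonad and lumbar backfat, with 1 array per pig and tissue. No group was treated, and the pigs were of 4 breeds, kept together on the same diet from about 1 month of age and fasted before slaughter: Duroc (DU, 2 males and 2 females, mean age 83 days and mean weight 23.1 kg), Iberian (IB, 2 males and 2 females, 89 days and 17.4 kg), Large White (LW, 2 males and 2 females, 87 days and 27.2 kg) and Youli (YL, 3 males and 1 female, 80 days and 18.9 kg). This gave 9 testes and 7 ovaries, and breed cannot be told apart from mean age and weight. Animals are named by breed, sex and number, so that IBF25 is Iberian female 25.

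Values are the deposited log2 GCRMA values, in which 1 unit is a factor of 2 in signal, and values below 3 are called near background here. Array medians lay between 4.67 and 5.04. A few arrays stood apart from their tissue by markers of cell types. The array labelled ovary of IBF25 had INHA, the inhibin subunit of follicles, at 1.54, against 9.99 to 12.15 in the other 6 ovaries, and ZP3, an egg coat protein, at 2.22, against 8.37 to 11.14, while the epithelial keratin KRT18 read 10.07, against 1.80 to 7.04. The backfat array of YLM19 had the muscle troponin TNNT3 at 14.27, against 2.05 to 8.74 in the other 15 animals, and the adipocyte regulator PPARG at 8.18, against 10.58 to 11.11. The hypothalamus array of YLM19 carried growth hormone (GH1) at 10.93, against 2.49 to 7.10 in the others. The hypothalamus array of YLM18 carried transthyretin (TTR), a partner of RBP4 made in the choroid plexus, at 10.83, against at most 7.06 in the others. It stood apart by TTR only. The other measured choroid plexus markers, FOLR1 at 7.54 and AQP1 at 1.81, lay within the ranges of the other animals (6.12 to 8.78 and 1.27 to 2.02). Liver albumin (ALB) read 8.73 in the backfat of LWF05 and 7.94 in the thyroid gland of LWM02, against at most 7.13 and 5.66 in the other animals of those tissues. Main values of ALDH1A1 and RBP4 in ovaries, backfat and hypothalamus are also given without IBF25 or YLM19, a choice made after seeing the data. In the thyroid gland 11 of 16 sample titles disagreed with the breed or sex field, and the title was followed.

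ALDH1A1 was expressed in every tissue, and its spread between animals differed widely from tissue to tissue. By its brighter probeset, Ssc.6928.1.A1_at, the thyroid gland ran from 12.36 to 13.75 with a median of 12.96 (mean 12.97 ± 0.38, SD, n = 16). The adenohypophysis ran from 12.28 to 12.94 with a median of 12.66 (12.64 ± 0.17, n = 16). Backfat ran from 8.94 to 11.86 with a median of 10.92 (10.59 ± 1.09, n = 16, and 10.70 ± 1.03 without YLM19). Thyroid gland and adenohypophysis were thus uniformly high, and no backfat array reached them.

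Testes ran from 5.73 to 11.92 with a median of 9.66 (9.33 ± 2.20, n = 9), against 5.85 to 12.72 with a median of 6.78 in ovaries (8.60 ± 2.84, n = 7). Without IBF25 the highest ovary was 11.11 and the ovarian mean 7.92 ± 2.39 (n = 6). The hypothalamus ran from 5.64 to 11.64 with a median of 8.24 (8.14 ± 1.82, n = 16, and 8.22 ± 1.85 without YLM19). In order of their means the tissues were thyroid gland, adenohypophysis, backfat, testis, ovary and hypothalamus. Of these neighbours only adenohypophysis and backfat had ranges that did not overlap, 2.05 apart in mean. The order of ovary and hypothalamus hung on IBF25, since without it the ovarian mean of 7.92 was below the hypothalamic 8.14. By median the ovary was the lower with all 7 arrays, at 6.78 against 8.24. In whole tissue, fewer cells of a type and less RNA per cell cannot be told apart.

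The dimmer ALDH1A1 probeset, Ssc.24986.1.S1_at, gave the same picture lower down its scale. Thyroid gland arrays read 10.26 to 11.70 and adenohypophysis arrays 9.88 to 11.15, and the probeset read 5.85 to 9.63 in backfat, 2.19 to 10.06 in testes, 2.18 to 10.67 in ovaries and 2.17 to 9.77 in the hypothalamus, and 6 of 80 arrays were near background. Over the 80 arrays, which share tissues, its Pearson r with the brighter probeset was 0.99, and within a tissue r was 0.97 in backfat, 0.98 in testes and 0.98 in the hypothalamus. In the adenohypophysis, where the gene hardly varied, r was 0.28.

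RBP4 had another distribution, high in backfat and adenohypophysis and near background in testes. By probeset Ssc.15695.1.S1_at, backfat ran from 7.08 to 9.79 with a median of 9.36 (9.10 ± 0.74, n = 16), and from 8.18 to 9.79 without YLM19 (9.24 ± 0.53, n = 15). The adenohypophysis ran from 8.18 to 9.60 with a median of 8.75 (8.79 ± 0.38, n = 16). The hypothalamus ran from 4.70 to 7.13 with a median of 5.78 (5.77 ± 0.71, n = 16, and 5.76 ± 0.73 without YLM19). These first 3 tissues of the order split into a high pair and a middle level, with adenohypophysis and hypothalamus 3.01 apart in mean and not overlapping.

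The thyroid gland, which had the highest mean of ALDH1A1, had RBP4 at only 2.05 to 5.26 with a median of 3.51 (3.74 ± 0.78, n = 16). Testes ran from 1.64 to 2.91 with a median of 1.90 (2.08 ± 0.47, n = 9), against 2.84 to 3.50 with a median of 3.33 in ovaries (3.28 ± 0.23, n = 7). All 9 testes were near background, and only 1 testis and 1 ovary lay within the range of the other gonad. Thyroid gland and ovary overlapped in 8 thyroid arrays and all 7 ovaries, and hypothalamus and thyroid gland in 4 and 2 arrays. The other RBP4 probeset, Ssc.10930.1.A1_at, stayed between 1.91 and 2.28 in all 80 arrays and carried no usable level.

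**Figure D1:**
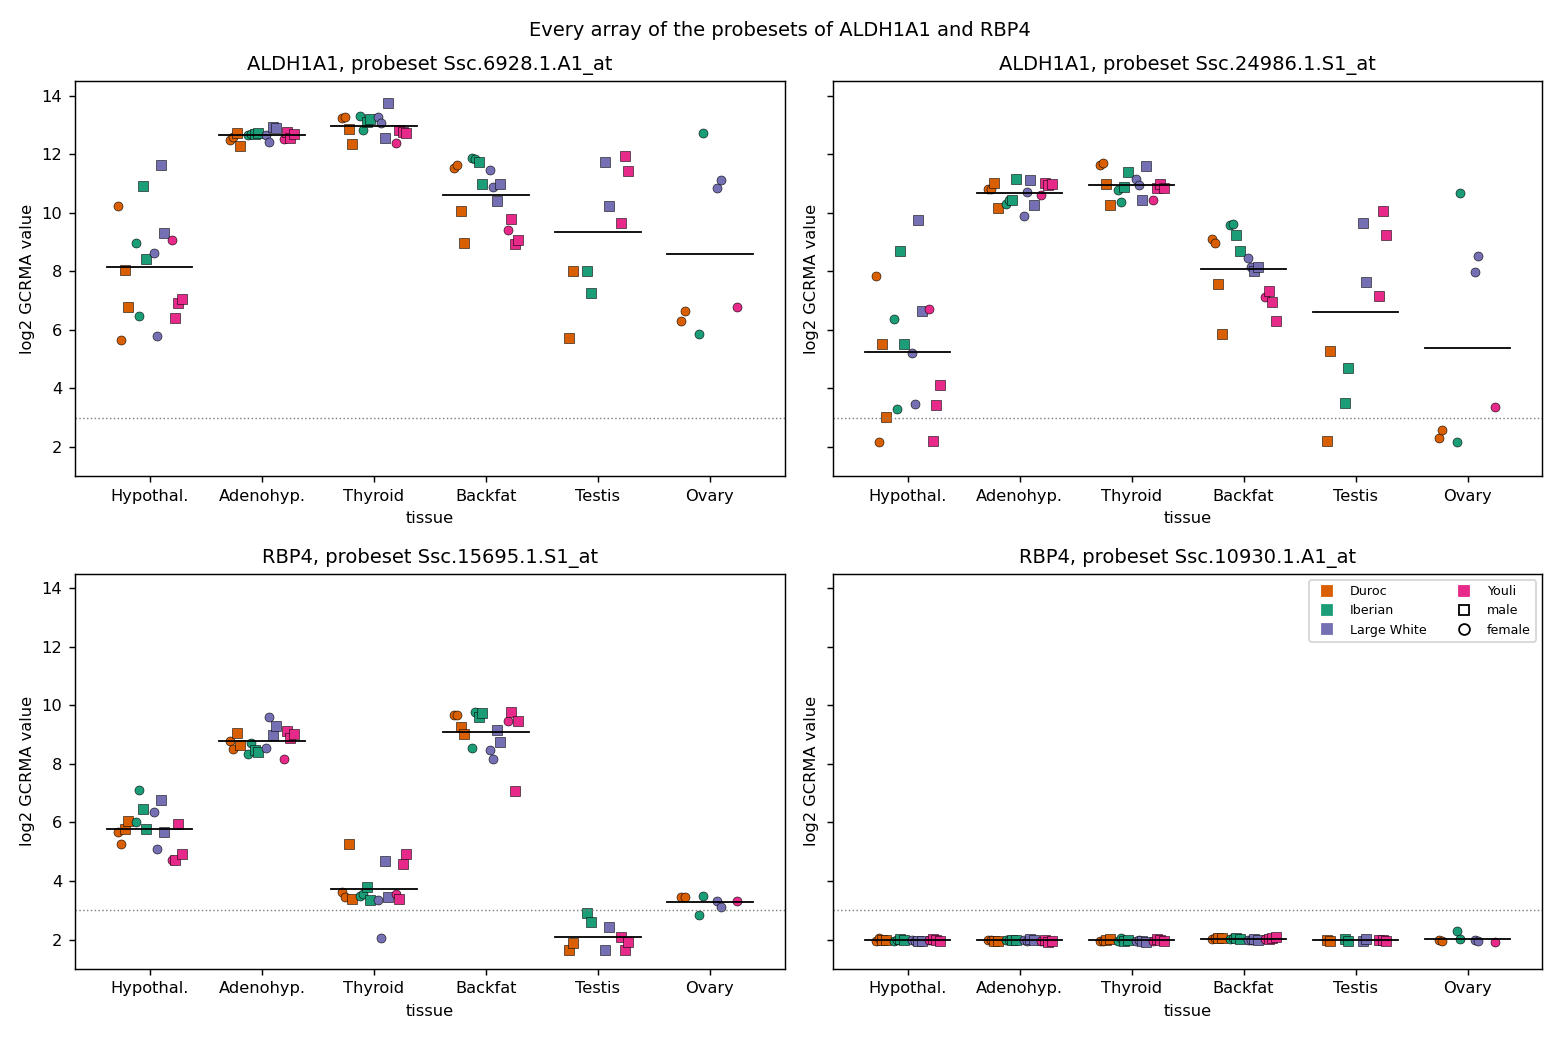
Log2 GCRMA value (vertical axis) of each of the 4 probesets in the 80 arrays by tissue, coloured by breed, with squares for males and circles for females, a line at each tissue mean and a dotted line at 3. ALDH1A1 was tight in adenohypophysis (12.28 to 12.94) and spread in hypothalamus and gonads, RBP4 was highest in backfat and adenohypophysis, and the second RBP4 probeset stayed at or below 2.28.

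The tissues also differed in how far ALDH1A1 varied between breeds. The distance from the highest to the lowest breed mean was 4.50 in ovaries, 4.14 in testes, 2.30 in backfat, 1.48 in the hypothalamus, 0.49 for the thyroid gland and 0.22 for the adenohypophysis. The ovarian figure rests on 1 or 2 animals per breed, with Duroc lowest, and without IBF25 it was 5.12, with Iberian lowest.

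In testes, ALDH1A1 was 5.73 and 7.999 in DUM12 and DUM15, and 8.004 and 7.26 in IBM23 and IBM24. It was 11.72 and 10.22 in LWM02 and LWM04, and 9.66, 11.92 and 11.43 in YLM18, YLM19 and YLM20. All 5 Large White and Youli testes lay above all 4 Duroc and Iberian testes. Breed means were 10.97 ± 1.06 in Large White (SD, n = 2), 11.01 ± 1.19 in Youli (n = 3), 6.86 ± 1.61 in Duroc (n = 2) and 7.63 ± 0.52 in Iberian (n = 2).

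Markers of testis cell types moved alongside. SPA17, a sperm surface protein that was ranked with ALDH1A1 by the study, read 3.20 and 4.19 in DUM12 and DUM15, 3.87 and 3.50 in IBM23 and IBM24, 9.39 and 6.11 in LWM02 and LWM04, and 5.16, 10.85 and 9.93 in YLM18, YLM19 and YLM20. Its r with ALDH1A1 over the 9 testes was 0.93 (0.96 without DUM12, the lowest). The sperm protamine PRM1 was at 9.24, 12.03 and 11.93 in LWM02, YLM19 and YLM20 and at 2.33 to 2.49 in the other 6 testes, so that LWM04 and YLM18 had high ALDH1A1 with PRM1 near background. PRM1 too was ranked by the study for its variation between breeds in these testes. That SPA17 and PRM1 moved with ALDH1A1 was therefore partly fixed by that ranking. SPA17 had the highest r of the measured spermatid list, against 0.80 for PRM1, PRM2 and ODF1 and 0.78 for TNP2. AMH, a hormone of immature Sertoli cells, ran the other way, from 5.07 in YLM19 up to 11.05 in DUM12, with r = -0.91. Other genes of the Sertoli cell list did not share one direction, with r = -0.81 for GATA4, -0.79 for FSHR and -0.65 for SOX9, 0.03 for WT1, and 0.60 for DMRT1 and 0.74 for CLU. INHBB was near background in all 9 testes.

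Of 7 spermatid markers 5 were measured, and their summed level (log2 of the summed signals) was 4.85 to 5.22 in Duroc and Iberian testes and 5.80 to 13.09 in Large White and Youli testes. That sum had r = 0.86 with ALDH1A1. The summed level of the 8 Sertoli cell markers ran from 14.37 to 14.81 and had r = 0.54 with ALDH1A1. That sum was mostly CLU, at 14.21 to 14.67, while no other gene of the list read above 11.05. It therefore does not stand for the list as a whole. The summed level of the 7 Leydig cell markers ran from 14.32 to 15.89 and had r = -0.62 with ALDH1A1 and 0.76 with RBP4. All 9 testes had RBP4 near background, so little can be read from its r. The summed level of 9 measured markers of epididymis and reproductive tract epithelium was 6.09 to 8.61, with r = -0.15 with ALDH1A1. Of these markers 6 were near background in all 9 testes. The rest did not share one direction, with r = 0.78 for EPCAM, -0.73 for KRT8 and -0.32 for OVGP1. The part of these cell types in the testis values of ALDH1A1 was not tested.

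RBP4 in testes was 1.65 and 1.88 in DUM12 and DUM15, 2.91 and 2.61 in IBM23 and IBM24, 1.64 and 2.43 in LWM02 and LWM04, and 2.09, 1.64 and 1.90 in YLM18, YLM19 and YLM20. Both Iberian testes read above the other 7, with all 9 near background.

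In ovaries, ALDH1A1 was 6.30 and 6.63 in DUF13 and DUF14, 5.85 and 12.72 in IBF22 and IBF25, 10.83 and 11.11 in LWF05 and LWF06, and 6.78 in YLF21. The 7 values therefore fell into separate ranges, with 4 ovaries at or below 6.78 and 3 at or above 10.83. The Iberian pair was as far apart as any animals in the tissue, and IBF25 is the array in which follicle and egg markers were low.

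KRT18 was 6.39 and 7.04 in LWF05 and LWF06 and 10.07 in IBF25, and 1.80 to 1.86 in the other 4 ovaries. The oviduct glycoprotein OVGP1 was 13.24, 14.02 and 11.81 in those 3 arrays and 2.12 to 5.85 in the other 4. The summed level of the 9 reproductive tract epithelium markers was 13.66, 14.32 and 14.45 in LWF05, LWF06 and IBF25, and 7.50 to 10.07 in the others, while CRISP1, GPX5 and LCN5 of that list were near background in all 7. The 2 Large White ovaries had high summed levels of follicle markers (13.40 and 13.36, against 5.13 in IBF25) and egg markers (12.66 and 12.37, against 5.97). Of the follicle list, FSHR was near background in these 2 ovaries (2.87 and 2.60) and in IBF25 (2.55), against 3.13 to 5.92 in the other 4. FOXL2 and CYP19A1 were near background in all 7. The part of epithelial cells in the ovarian values of ALDH1A1 was not tested. RBP4 did not follow this split, with 3.33 and 3.11 in LWF05 and LWF06, 3.50 in IBF25, 2.84 in IBF22, 3.44 and 3.45 in DUF13 and DUF14, and 3.31 in YLF21.

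**Figure D2:**
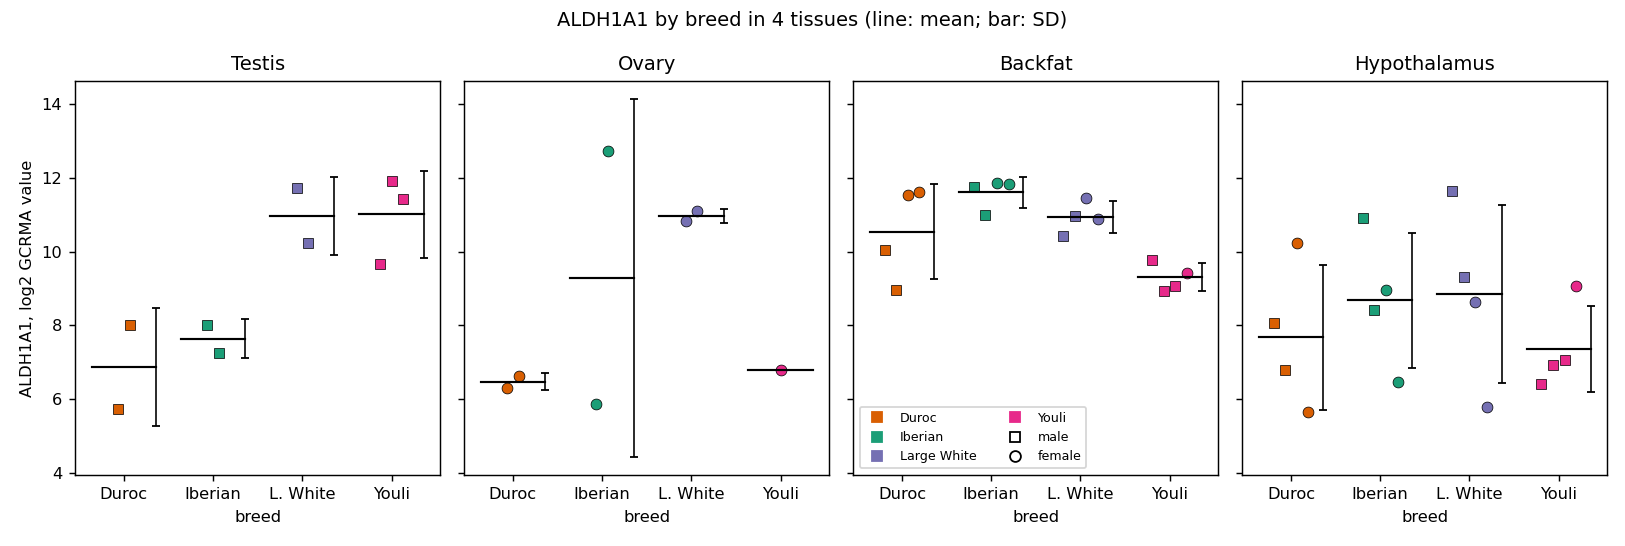
Log2 value of ALDH1A1 (probeset Ssc.6928.1.A1_at, vertical axis) by breed in testis, ovary, backfat and hypothalamus, 1 point per animal, with squares for males and circles for females, lines for means and bars for SD. Youli has the highest breed mean in testis (11.01) and the lowest in backfat (9.30).

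In backfat, ALDH1A1 had a breed order unlike that of testes. Iberian pigs were at 11.86 and 11.82 (IBF22 and IBF25) and 11.74 and 11.00 (IBM23 and IBM24), mean 11.60 ± 0.41 (SD, n = 4). Large White pigs were at 11.46, 10.87, 10.41 and 10.98, mean 10.93 ± 0.43. Duroc females were at 11.54 and 11.62 and Duroc males at 10.04 and 8.95, mean 10.54 ± 1.28. Youli pigs were at 9.42, 9.78, 8.94 and 9.06, mean 9.30 ± 0.38, below every Iberian and Large White animal; without YLM19 the Youli mean was 9.42.

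RBP4 in backfat had smaller breed differences, Iberian pigs averaging 9.42 ± 0.58, Duroc 9.40 ± 0.33, Youli 8.94 ± 1.25 and Large White 8.64 ± 0.42 (SD, n = 4 each). YLM19 alone, at 7.08, set the Youli spread, since the other 3 Youli pigs read 9.47 to 9.76. Without YLM19 the Youli mean was 9.56 ± 0.17 (n = 3), the highest of the 4 breeds in place of the third. Summed muscle markers were 16.23 in YLM19, against 4.26 to 12.09 in the other 15 animals, and summed adipocyte markers 14.09, against 15.46 to 15.84. Over the 16 animals the adipocyte sum had r = 0.80 with RBP4 and 0.27 with ALDH1A1. Without YLM19 these were 0.51 and -0.42, so that the sign for ALDH1A1 turned. The adipocyte sum was mostly FABP4, at 13.55 to 15.12, while LEP had a median of 2.72, near background. The summed level of 6 liver markers in backfat ran from 10.44 to 11.83 and had r = -0.11 with RBP4, or -0.65 without YLM19. That sum was mostly APOA1, which ran from 10.41 to 11.82. ALB, APOC3, TTR, SERPINA1 and FGB had medians of 1.90 to 2.93, near background. The part of tissue makeup in the backfat values was not tested.

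In the hypothalamus, ALDH1A1 varied more within breeds than between them. Large White pigs read 8.64, 5.79, 11.64 and 9.30 (mean 8.84 ± 2.41), Iberian 8.95, 6.45, 10.90 and 8.43 (8.68 ± 1.83), Duroc 10.23, 5.64, 8.06 and 6.78 (7.68 ± 1.97) and Youli 9.05, 6.41, 6.93 and 7.05 (7.36 ± 1.16, or 7.51 ± 1.38 without YLM19). DDC, the decarboxylase that makes dopamine and serotonin, ran from 4.17 in YLM19 to 9.77 in LWM02. Its r with ALDH1A1 over the 16 animals was 0.90 (0.86 without LWM02 and 0.93 without YLM19). That r was the highest of all genes with a probeset of their own in this tissue. NR4A2, a transcription factor of midbrain dopamine neurons and the other measured gene of 5 listed dopaminergic markers, had r = 0.57. The summed level of the 5 neuronal markers ran from 14.56 to 15.48 and had r = -0.25 with ALDH1A1, and that of the pituitary markers had r = 0.10, or 0.32 without YLM19. Whether the dissected piece held more of one nucleus in some animals was not tested. RBP4 in this tissue averaged 6.35 for Iberian, 5.99 for Large White, 5.70 for Duroc and 5.07 for Youli pigs (4.77 without YLM19).

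The adenohypophysis and thyroid gland held ALDH1A1 steady across breeds. ALDH1A1 in the adenohypophysis averaged 12.73 in Large White, 12.69 in Iberian, 12.64 in Youli and 12.52 in Duroc, and in the thyroid gland 13.16 in Large White, 13.10 in Iberian, 12.93 in Duroc and 12.67 in Youli. RBP4 in the adenohypophysis averaged 9.11 in Large White, 8.81 in Youli, 8.75 in Duroc and 8.49 in Iberian. In the thyroid gland RBP4 averaged 4.11 in Youli, 3.94 in Duroc, 3.53 in Iberian and 3.38 in Large White, with DUM12 highest at 5.26 and LWF06 lowest at 2.05.

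Sex outside the gonads is not what ALDH1A1 was ranked on, while the values behind the choice of RBP4 are not known, so that its sex tests may not be independent of that choice. Sex was tested in each tissue by limma with breed as covariate, two-sided, with Benjamini-Hochberg adjustment over all 23999 probesets. Neither gene passed in any tissue, and the only unadjusted p under 0.05 for either was that of ALDH1A1 in backfat. Of all probesets the share called for sex was 0.500% for the adenohypophysis, 0.0792% for the thyroid gland, 0.0667% for the hypothalamus and 0.05% for backfat.

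For ALDH1A1 in backfat, males ran from 8.94 to 11.74 (mean 10.10 ± 1.01, n = 9) and females from 9.42 to 11.86 (11.23 ± 0.86, n = 7). Males minus females was -0.84 (SE 0.29, unadjusted p = 0.0141, adjusted p = 0.999), and -0.91 (SE 0.34) by the dimmer probeset. The male and female ranges overlapped. In the other tissues ALDH1A1 had limma differences of 0.80 for hypothalamus (SE 0.94, adjusted p = 0.999, and 0.29 to 1.57 with 1 animal left out), 0.14 for adenohypophysis (SE 0.08, adjusted p = 0.841) and -0.08 for thyroid gland (SE 0.18, adjusted p = 0.964).

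RBP4 in the thyroid gland had 4.09 ± 0.77 in males and 3.30 ± 0.56 in females (SD, n = 9 and 7), a difference of 0.73 (SE 0.35, adjusted p = 0.964 in limma). With breed and sex from the fields of the thyroid arrays in place of the titles it was -0.09, so its sign hangs on which label is right. For hypothalamus, adenohypophysis and backfat the differences were 0.23 (SE 0.29), 0.22 (SE 0.16) and 0.01 (SE 0.38). The sex differences of both genes were also compared between tissues, in 12 comparisons, and none passed in limma (lowest adjusted p = 0.343, ALDH1A1, adenohypophysis minus backfat, 0.97, SE 0.25), with 2 of the 12 under an unadjusted p of 0.05, both of ALDH1A1 against backfat.

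The level of ALDH1A1 was not detectably related to that of RBP4 across animals within a tissue. Hypothalami had a Pearson r of 0.38 (rho = 0.30, n = 16), adenohypophyses 0.17 (rho = 0.27, n = 16), thyroid glands -0.32 (rho = -0.33, n = 16), backfat 0.25 (rho = 0.29, n = 16) and testes -0.32 (rho = -0.42, n = 9). By two-sided permutation tests adjusted over the 6 tissue groups computed, p was 0.583 for each r and 0.368 for each of these rho values. Without the 2 animals farthest from the median of ALDH1A1, r was 0.10, 0.09, -0.43, -0.14 and -0.65 in the same tissues. Centred on breed means, r was 0.24, 0.13, -0.16, 0.25 and -0.40. RBP4 was near background in all 9 testes, which limits every testis r given here. In backfat r was -0.07 without YLM19. For ovaries no pooled r is given, since ALDH1A1 fell into separate ranges of fewer than 6 animals. Centred on breed means the 7 ovaries gave r = 0.94 (rho = 0.64), a value set by the 2 Iberian ovaries, which lay 6.87 apart in ALDH1A1. The higher of these 2 is IBF25, the array low in follicle and egg markers. Centring makes the 2 ovaries of a breed mirror each other and leaves the single Youli ovary no deviation. The centred values are thus not independent, and their permutation p (0.038, adjusted 0.231) cannot be read.

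Genes with the most similar profile were looked for among the 6765 genes with a probeset of their own, by Pearson r to the brighter probeset of each gene, as a description. Over the 80 arrays, which share tissues and animals, ALDH1A1 was most like FAXDC2 (r = 0.84), PDE6C, a phosphodiesterase of retinal cones (0.81), ATP6V0E1, a proton pump subunit (0.81), TVP23B (0.80) and KRT18 (0.77). RBP4 was most like MAN1A1, a mannosidase of the Golgi (0.91), ACSS3 (0.89), TSPAN13 (0.89), TMX3 (0.87) and ITM2A (0.86).

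After each tissue mean was taken off, so that only differences between animals of a tissue remained, ALDH1A1 was most like CCDC65 (r = 0.71), CCDC146 (0.71), SPACA9 (0.69), UBXN10 (0.69) and DPCD (0.68), and several of these are known for parts in cilia or sperm flagella. Over the 9 testes alone r was 0.78 to 0.94, against -0.08 to 0.44 over the 64 arrays outside the gonads with tissue means off, and for ovaries alone no r is given. The 5 genes were ranked over arrays that held these testes and the ovaries, IBF25 among them, so the testis r is no separate support. SPACA9 and UBXN10 averaged 2.43 to 2.79 in the tissues outside the gonads, near background, and had little variation to follow there. RBP4 was most like ORMDL3 (0.54), CEBPA, a regulator of fat cell differentiation (0.52), CBLB (0.50), ACAA1 (0.49) and CD209 (0.49). Outside backfat the tissue means were only 2.41 to 2.65 for CEBPA and 2.19 to 3.11 for CD209. The RBP4 ranking included the backfat of YLM19, the lowest of that tissue for both RBP4 and CEBPA. In backfat CEBPA ran from 4.003 to 8.54 and had r = 0.88 with RBP4 (0.73 without YLM19) and 0.11 with ALDH1A1 (-0.32 without YLM19).

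In backfat alone, the 5 genes highest in r with ALDH1A1 were SCD, the desaturase that makes oleate, at 0.92 (0.91 without YLM19), SCP2, ECHDC1 and PSAT1, each at 0.91, and ME1, the malic enzyme that supplies NADPH for fat synthesis, at 0.90. The fat synthesis enzymes ELOVL6, FASN and ACACA had r of 0.88, 0.75 and 0.26. ACACA was near background, at 2.41 to 2.82 in all animals but IBF25 (3.46), so little can be read from its r. These genes were picked after their values were seen. SCD was 14.21 in IBF22, with ALDH1A1 at 11.86, and 7.14 in DUM15, with ALDH1A1 at 8.95.

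**Figure D3:**
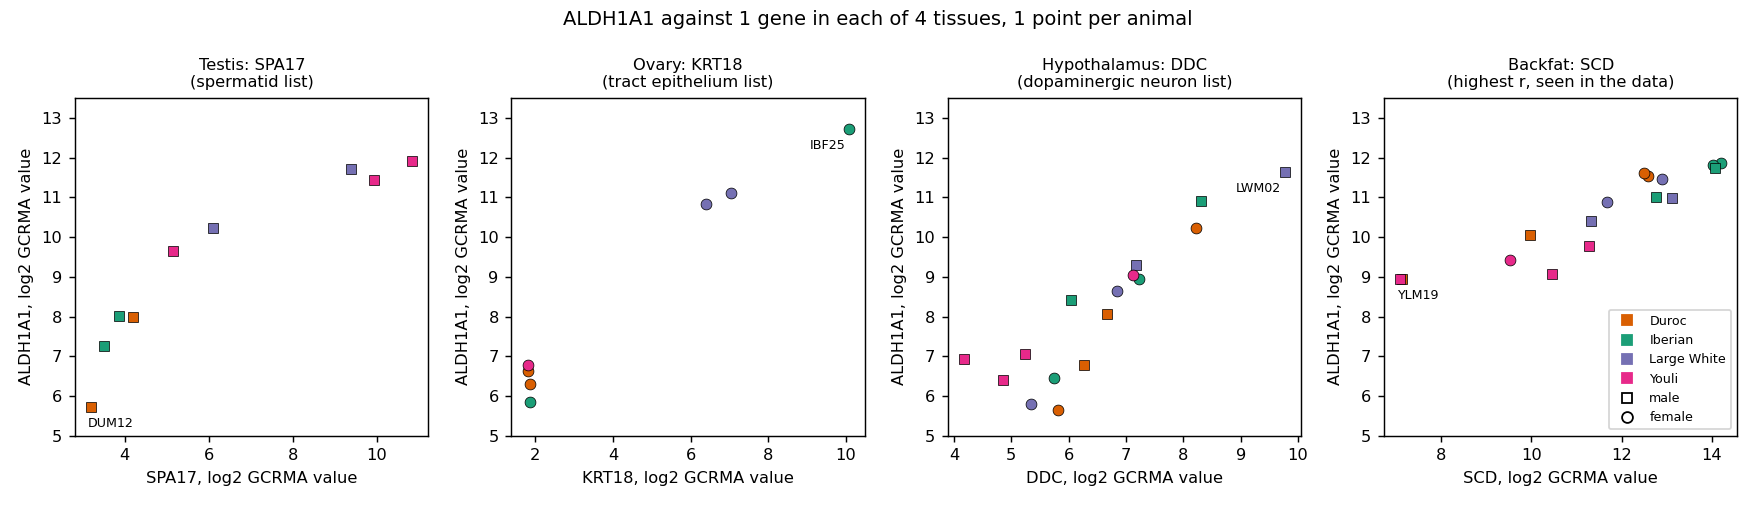
Log2 value of ALDH1A1 (vertical axes) against SPA17 in 9 testes, KRT18 in 7 ovaries, DDC in 16 hypothalami and SCD in 16 backfat samples (horizontal axes), 1 point per animal, coloured by breed, with squares for males and circles for females. Each panel shows 1 gene picked for that tissue, with r of 0.93 in testes, 0.90 in hypothalami and 0.92 in backfat, and the ovaries form separate sets, with 3 at or above 10.83. SPA17 was ranked with ALDH1A1 by the study and had the highest r of its marker list. KRT18 too ranked first of its list by r, and DDC and SCD ranked first of all genes compared in their tissues.

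Of 79 listed genes of retinoid uptake, storage, metabolism and response, 39 had a probeset of their own, among them ALDH1A1 and RBP4. ALDH1A1 was the only measured gene of the 5 listed for retinal oxidation. Of the other 37, 6 had means near background in every tissue, and these included the receptor RXRA and the retinoic acid hydroxylase CYP26A1. Between the 6 tissue groups 35 of 37 differed by limma's moderated F, where 93.8% of all probesets were called, so the share is that of the array as a whole.

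In backfat, where the mean of RBP4 was highest, some lipid-handling genes of the list were also highest, though not all. RBP7, a retinol-binding protein of adipose tissue, was 9.004 to 11.73 in backfat and at most 7.28 elsewhere. LIPE, the hormone-sensitive lipase that also frees retinol from esters, was 10.39 to 13.07 in backfat and at most 9.02 elsewhere, and LPL, which takes up lipid and retinyl ester from blood, was 11.08 to 13.25 and at most 10.89 elsewhere. The ester hydrolase PNPLA4 stayed near background in backfat, 2.13 to 2.70, and the lipoprotein receptor SCARB1 averaged 9.07 in backfat and 10.75 in testes. In the thyroid gland, where ALDH1A1 was highest, LRP2 (megalin, an endocytic receptor) was 6.85 to 8.97 and at most 2.93 in any other tissue. In the adenohypophysis, where both genes were high, the receptor RXRG was 6.10 to 7.58, against 2.06 to 2.58 in the thyroid gland and 3.76 to 7.74 in backfat.

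Between testis and ovary 20 of the 37 genes differed (limma, breed as covariate, adjusted p under 0.05). Testes were higher for 10 of 37, where 15.0% of all probesets were called higher, and lower for 10 of 37, where 13.2% were called lower. The median difference was -0.01 for the 37 genes and 0.02 for all probesets. All 20 were also called without IBF25, together with ADH5.

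Among enzymes that interconvert retinol and retinal, the step before ALDH1A1, 4 of 5 differed. CBR1, a carbonyl reductase of broad range, was 13.37 to 14.30 in testes and near background, 2.28 to 2.42, in all 7 ovaries (adjusted p = 6.4e-14). Set against the near-background level of 3, the mean of testes was at least 10.93 higher. DHRS4, a retinal reductase, was 13.48 to 14.42 in testes and 5.91 to 10.48 in ovaries, a difference of 7.05 (SE 0.46). RDH11, a retinol dehydrogenase, was 13.19 to 14.21 in testes and 8.09 to 11.93 in ovaries, a difference of 3.14 (SE 0.45). The RDH11 ovary at 8.09 was IBF25, and the others read 10.02 to 11.93. All 3 were high in every testis, with no overlap, whereas ALDH1A1 spread over 5.73 to 11.92 in the same 9 testes. RDH14 differed slightly the other way, by -0.42 (SE 0.10).

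Of binding proteins 3 of 6 were higher in testes: RBP5 by 1.63 (SE 0.42), and RLBP1 (2.27 to 4.98 in testes) and RBP7 (2.57 to 5.84 in testes), which were near background in all 7 ovaries. Against a level of 3 the testis means were at least 0.56 higher for RLBP1 and 0.85 higher for RBP7. Of carriers and uptake genes other than RBP4 1 of 4 differed, SCARB1, a lipoprotein receptor, by 2.11 (SE 0.57). In storage and release 2 of 4 differed, with DGAT1, which can esterify retinol, higher by 1.06 (SE 0.29). PNPLA4, a retinyl ester hydrolase, was 2.18 to 4.39 in testes and 2.03 to 11.45 in ovaries, with 7 of 9 testes near background (adjusted p = 0.0012). With means below 3 set to 3, testes minus ovaries was -5.40, and -6.46 without IBF25, the only low ovary at 2.03.

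Of receptors and cofactors 4 of 9 differed, none by as much as 1 unit: NCOA2 by 0.53, RXRB by -0.84, RARB by -0.47 with all testes and most ovaries near background, and NCOR1 by -0.30. Of genes known to respond to retinoic acid 6 of 7 differed, 5 of them lower in testes, and these were RARRES1 (-3.28, SE 1.01), MEIS1 (-3.07, SE 0.51), MEIS2 (-2.46, SE 0.34), EGR1 (-1.97, SE 0.48) and RARRES2 (-1.95, SE 0.21), with RAI14 higher by 1.17 (SE 0.14). Without IBF25 the RARRES1 difference was -4.25. For MEIS1, IBF25 was the highest ovary, at 11.87, against 7.68 to 9.59 in the others, so it enlarged that difference. The breakdown enzyme CYP26A1 and the carotenoid oxygenase BCO2 did not pass.

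**Figure D4:**
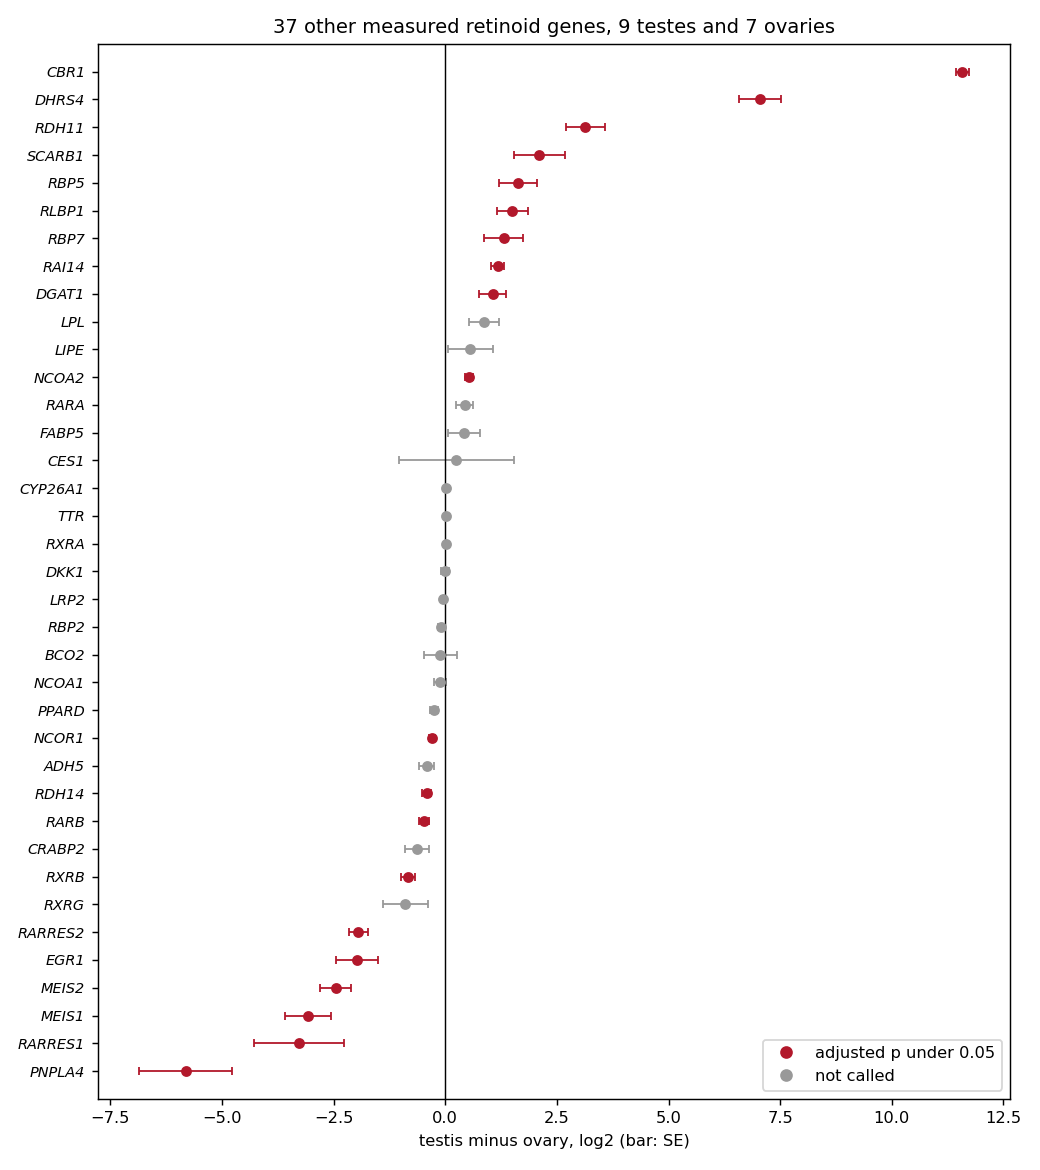
Testis minus ovary difference (log2, horizontal axis, bars SE) of the 37 other measured retinoid genes, ordered by size, with red points for adjusted p under 0.05 (9 testes, 7 ovaries). CBR1, RLBP1 and RBP7 were near background in all ovaries and PNPLA4 in 7 of 9 testes, so the size and rank of their fitted differences are not resolved, and receptors and cofactors that were called lie within 1 unit of 0.

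Sex and breed left most of the list without a call. For sex the only call was RDH11 in the adenohypophysis, with 9.26 ± 0.13 in males and 9.75 ± 0.21 in females (SD, n = 9 and 7), a difference of -0.48 (SE 0.07, adjusted p = 0.0094 in limma). For breed the moderated F called 0.817% of all probesets in backfat, 0.575% for the thyroid gland, 0.300% for the adenohypophysis, 0.171% for the hypothalamus, 0.00417% in ovaries and 0.00% in testes. Of the 37 genes only PPARD in backfat was called (adjusted p = 0.047), a receptor that also binds retinoic acid, with 5.59 to 5.85 in Iberian pigs and 4.36 to 5.52 in the other breeds. That call was lost in 15 of 16 fits that left out 1 animal. In testes, where breed means of ALDH1A1 lay 4.14 apart, 2 of the 37 had an unadjusted p under 0.05, as had 3352 of all probesets.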

How the data were processed

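Tissue RNA of 16 pigs was hybridised to Affymetrix porcine arrays, and the authors normalized all arrays together by GCRMA; the deposited log2 values were used as given. Of 24123 probesets, 124 controls were left out. The platform annotation gives 1 symbol for 10069 probesets, several for 198 and none for 13732; a gene with more than 1 probeset is represented by its brightest on average over all arrays. Groups came from sample titles.

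Fits used limma 3.58.1 (R 4.3.3, lmFit and eBayes, two-sided, Benjamini-Hochberg over 23999 probesets): sex with breed as covariate, testis minus ovary with breed, breed with sex, and 6 tissue groups over 80 arrays. The fits were tested on simulated data. Correlations between ALDH1A1 and RBP4 used permutation tests (100000 resamples, or exact in testes and ovaries). P-values within a tissue, of testis minus ovary and of sex between tissues rest on the spread between pigs, with 1 array per pig and tissue. The main fit of the 6 tissue groups took the 80 arrays as independent, although tissues came from the same pigs. The number of arrays limits the precision. Marker sums are log2 of the summed linear values, so the brightest genes of a list weigh most.

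The members, the retinoid and marker lists and the tests were chosen with earlier results of these data known. Named genes were all members' probesets, called retinoid genes, markers whose list moved with a result, and the 5 genes of highest r over the 80 arrays and after tissue means were taken off. Alternatives were quantile normalization, a filter on dim probesets (log2 above 4 in at least 4 arrays), other probeset rules, thyroid labels from the fields, sex without breed, the animal as block and leaving out each animal. The animal gives the pairing of tissues, since the same pigs were sampled. No sequences were analysed here.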

Additional observations from a re-analysis of the deposited data

Results flagged for a closer look

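In 72 groups of 4 to 10 arrays (breeds within a tissue, testes, ovaries), 7 had 1 animal far from the rest by Dixon's criterion, and chance marks about 1 in 20 groups. For ALDH1A1, IBM24 read 11.00 in backfat, against 11.74 to 11.86 in the other Iberian pigs, and 11.15 by the dimmer probeset in the adenohypophysis, against 10.31 to 10.45. For RBP4, YLM19 read 7.08 in backfat, against 9.47 to 9.76 in the other Youli pigs, and this is the array with high muscle markers. YLM19 also read 5.96 for RBP4 in the hypothalamus, against 4.70 to 4.91, on the array with high growth hormone. DUM12 read 5.26 for RBP4 in the thyroid gland, against 3.40 to 3.64 in the other Duroc pigs, and IBF22 read 8.55 in backfat, against 9.60 to 9.79 in the other Iberian pigs. By the RBP4 probeset that stayed near background, the ovary of IBF22 read 2.28, against 1.93 to 2.0.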

How the results depend on the processing

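Of the sex values under settings that left out no animal, 48 kept their direction and side of the threshold and 2 turned: RBP4 in the thyroid gland became -0.0860 (0.73 by the titles) with labels from the fields, and RBP4 in backfat -0.0259 without breed as covariate (0.01 with it). Leaving out 1 animal, ALDH1A1 in the thyroid gland ran from -0.20 to 0.0336 and RBP4 in backfat from -0.15 to 0.19. The backfat r of ALDH1A1 with RBP4 was -0.14 without the 2 animals farthest from the median and -0.0669 without YLM19, which was chosen after seeing the data. With dim probesets left out, 2 list genes were called for sex in the adenohypophysis (1 before) and 1 for breed in the hypothalamus (0 before). Counting a gene when any probeset was called gave 1 for breed in the thyroid gland (0 before), and quantile normalization gave 0 in backfat (1 before). Leaving out 1 animal gave 0 to 1 breed calls in each of hypothalamus, thyroid gland and backfat, and 8 to 11 higher and 9 to 11 lower between testis and ovary. With the animal as a replicate block, 36 of 37 list genes were called between tissues (35 without the block), and it changed no other call, as the other fits hold 1 array per animal. With the mean of both probesets, ALDH1A1 averaged 11.96 for thyroid gland, 11.66 for adenohypophysis and 9.33 for backfat, and RBP4 5.56 for backfat, 5.38 for adenohypophysis, 3.88 for hypothalamus, 2.86 for thyroid gland and 2.65 for ovaries. Signal near background limits RBP4 in testes and its second probeset everywhere. The causes of these shifts were not tested.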
